A study of Drosophila melanogaster with 4 samples.

Results

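The genes described here are the chemosensory receptor genes of 2 chromosome arms, 2L and 3R, of Drosophila melanogaster, set against regions enriched for H3K4me1, the histone H3 mark in which lysine 4 carries a single methyl group. They were picked out by symbol, as every gene of these arms named Or, Gr or Ir followed by a number and 1 letter. This set of genes was chosen with earlier results of these data known. The rule found 73 genes among the 7681 genes that could be placed on these arms, of which 6024 code for proteins. There were 25 Or, 30 Gr and 18 Ir genes, with 31 on 2L and 42 on 3R. Their median length was 1472 bp, and all 73 were placed.

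The study was a ChIP-seq experiment (chromatin immunoprecipitation and sequencing) on whole embryos of the wild-type Oregon-R strain, collected 14 to 16 h after egg laying, with the antibody ab8895. It had a single condition with 2 ChIP libraries, replicate 1 and replicate 2, and 2 input libraries of genomic DNA whose values were not analysed here. Nothing in the labels ties the replicates to separate collections of embryos, and the spread between them may be technical only. The authors deposited a list of enriched regions for each ChIP library and a combined list, with positions on FlyBase release 5. On 2L and 3R replicate 1 had 3086 regions, replicate 2 had 2997 and the combined list had 3304, and they covered 29.7%, 27.5% and 33.6% of these arms. Because the read depth is unknown, a gene without a region is one at which none was listed, not one shown to lack the mark. In chromatin of whole embryos a mark carried by few cells and a weak mark in many cells cannot be told apart.

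H3K4me1 lies at enhancers and beside active promoters. Odorant receptors (Or) are odour-gated channels of olfactory neurons and work together with the co-receptor Orco. Gustatory receptors (Gr) detect bitter and sweet compounds, carbon dioxide and, in some cases, heat. Ionotropic receptors (Ir) derive from glutamate receptors and detect acids, amines, temperature and humidity, many of them together with broadly expressed co-receptors such as Ir25a and Ir93a. Each receptor is as a rule expressed in a small class of sensory neurons, and many of these genes sit in tandem arrays that arose by duplication.

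Most receptor genes had no H3K4me1 region nearby. A region lay on the gene or within 2 kb of it in both replicate lists at 18 of 73 receptor genes (24.7%, exact 95% Clopper-Pearson interval 15.3 to 36.1), against 69.7% of all protein-coding genes of both arms. For each receptor gene the 10 other protein-coding genes of the same arm closest in length were taken for comparison, and 526 of these 730 entries (72.1%) had a region by the same measure. Taken alone, replicate 1 gave 18 receptor genes (72.4% of all protein-coding genes), replicate 2 gave 19 (70.4%) and the combined list gave 22 (75%). In all, 51 of the 73 receptor genes had no region within 2 kb in any of the 3 lists. The difference between receptor and length-matched genes was -51.4 percentage points in replicate 1 and -46.2 in replicate 2. These shares describe genes of a single pair of libraries, and no test across samples applies to them because the design has no second condition. The intervals cover counting error only, and neighbouring receptor genes are not independent.

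**Figure D1:**
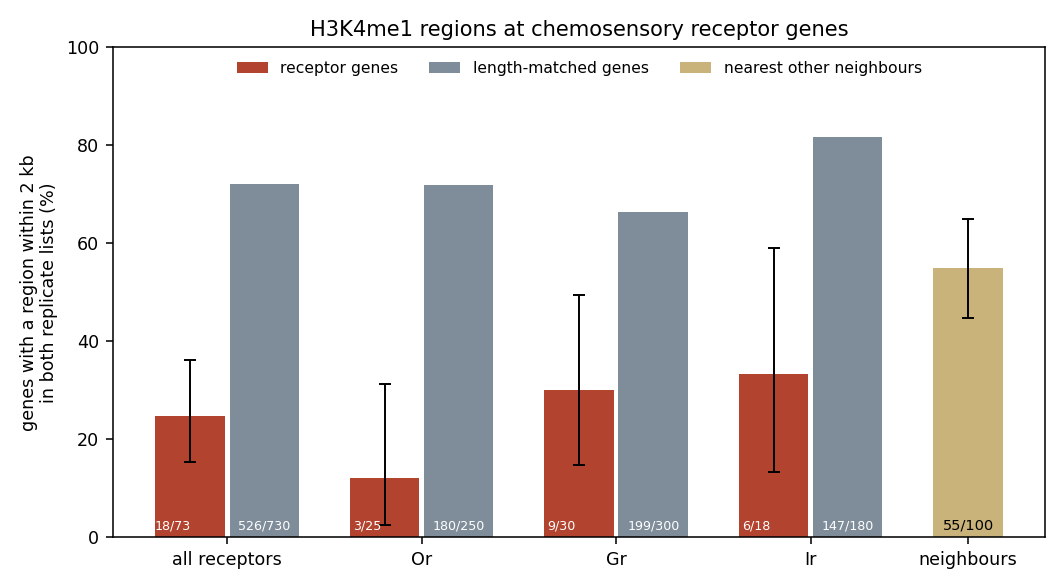
Share of genes (y axis, %) with an H3K4me1 region within 2 kb in both replicate lists, for receptor genes, their length-matched genes and the nearest other protein-coding neighbours of receptor genes, with the counts in the bars. Error bars are exact 95% Clopper-Pearson intervals and are left off the length-matched bars, where a gene can be counted more than once; all receptor genes together stand at 24.7%, below 72.1% of the length-matched genes.

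The contrast was also present on the gene itself. Regions touched the span of 12 receptor genes (16.4%) in both replicate lists, against 60.7% of the length-matched entries and 60.2% of all protein-coding genes. The mean covered share of the span was 7.52% ± 1.36 for receptor genes and 50.7% ± 0.966 for length-matched genes (SD, n = 2 lists). Receptor genes were below length-matched genes in both lists, with 8.48% against 51.4% in replicate 1 and 6.56% against 50.0% in replicate 2. At least 50% of the span was covered in both replicates at 3 receptor genes, Or85f, Gr39b and Gr94a, while this held for 40.9% of all protein-coding genes and 49.9% of the length-matched entries.

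Coverage also differed in the sequence around the genes. Receptor genes were least covered on their own span, and coverage outside increased with distance, to 12.6% ± 0.158 in the first kb, 17.4% ± 0.113 between 4 and 5 kb and 21.4% ± 0.957 between 6 and 7 kb. Beyond that it stayed between 17.7% and 23.6% out to 20 kb. Length-matched genes showed the opposite shape, with 49.5% ± 1.77 in the first kb and 37.1% ± 1.19 between 19 and 20 kb. At every distance the receptor genes were lower by more than the spread between replicates. The flanks of genes in tandem arrays hold other receptor genes, so these flanks are not all sequence of other kinds.

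**Figure D2:**
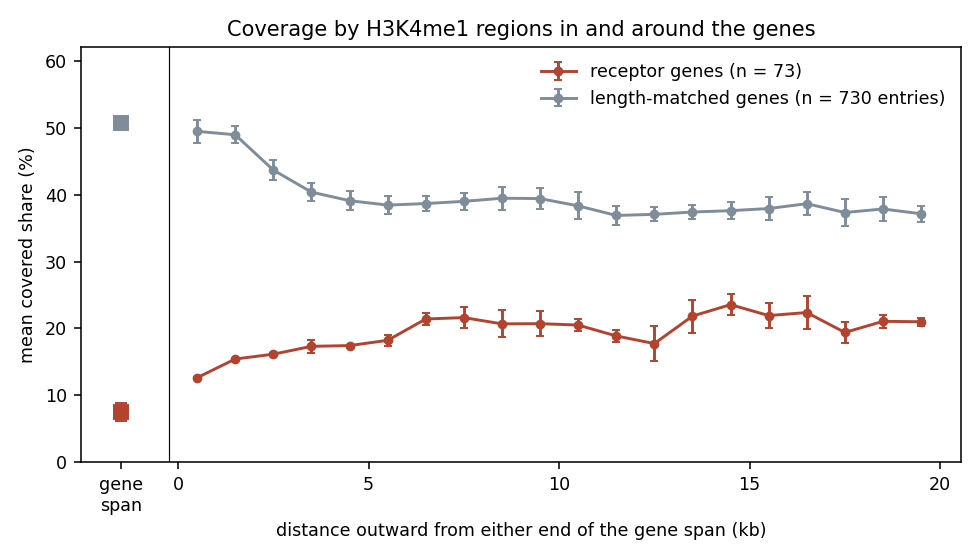
Mean share of sequence covered by H3K4me1 regions (y axis, %) on the gene span (squares) and in 1 kb steps outward from either end of it (circles), averaged over both sides, for receptor genes and length-matched genes. Points are means of the 2 replicate lists and bars are the SD; receptor genes are at 7.52% on the span and length-matched genes at 50.7%.

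Over both arms together, odorant receptor genes had the lowest share of genes with a region among the 3 families. A region lay within 2 kb in both replicates at 3 of 25 Or genes (12%, interval 2.55 to 31.2), against 180 of 250 length-matched entries (72.0%). The median distance from an Or gene to the nearest region was 15.6 kb in replicate 1 and 17.0 kb in replicate 2, but 6.20 kb in the combined list. None of the 10 Or genes of 2L was among the 3, and on that arm 65.9% of all protein-coding genes had a region by this measure. On 3R alone the Or genes were not set apart from the Ir genes, with 3 of 15 Or genes (20.0%) and 3 of 14 Ir genes (21.4%). The mean covered share there was 7.83% ± 0.257 for Or genes and 1.12% ± 0.396 for Ir genes (SD, n = 2 lists). The Or mean came from 2 genes, Or85f and Or88a, and the other 13 had no coverage in either replicate. Of the 14 Ir genes, 12 had no coverage in replicate 1 and 13 had none in replicate 2. Without a region within 2 kb in any list were Or22b, Or22c, Or23a, Or24a, Or30a, Or33a, Or33b, Or33c, Or35a, Or82a, Or83c, Or85b, Or85c, Or85d, Or85e, Or92a, Or94a, Or94b, Or98a and Or98b.

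Or35a, a broadly tuned receptor, stood farthest of all receptor genes from a region, at 105.1 kb in replicate 1 and 105.2 kb in replicate 2. Or23a followed with 68.4 kb and 68.3 kb, and Or98a with 67.3 kb and 67.4 kb. In the combined list Or35a and Or23a were about as far, at 105.1 kb and 68.3 kb, but a region lay 7.82 kb from Or98a. Or92a, which responds to diacetyl, was 34.2 kb and 34.7 kb away, and the farnesol receptor Or83c 22.7 kb and 23.9 kb. These distances differed little between replicates. Or22a and Or22b are neighbouring duplicates, and Or22a responds to fruit esters. Or22a lay 17.3 kb from a region in replicate 1 and 17.0 kb in replicate 2, and Or22b 19.5 kb and 19.2 kb. In the combined list a region with a low score of 0.28 lay 1507 bp from Or22a (2L:1517691-1518984). Neither single library listed a region within 2 kb of Or22a.

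The 3 Or genes with a region in both replicates were Or83a, Or85f and Or88a. Or85f was covered to 89.8% in replicate 1 and 77.7% in replicate 2, by a region that also overlapped 6 other protein-coding genes, the ribosomal protein gene RpL34b among them (3R:5224051-5232003 in replicate 1 and 3R:5224216-5231858 in replicate 2). Or88a, which responds to fly-produced methyl esters, was covered to 30.4% and 37.1% by a region with scores of 0.46 and 0.65. The scale of the scores is not stated, and they were read as log2 values on a scale particular to each list. The median region of these arms scored 0.78 in replicate 1 and 0.81 in replicate 2, so Or88a had a weak region. Or83a was not touched, and its nearest region lay 1.79 kb away in replicate 1 and 1.90 kb in replicate 2. Or85a, which responds to a fruit ester, had a region within 2 kb in replicate 2 only, at 1456 bp with a score of 0.49, while the nearest in replicate 1 lay 3047 bp away.

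Some Or genes are known to act in larval olfactory neurons, whose sense organs form in the embryo. From background knowledge 11 of the 25 were put on this list, namely Or22c, Or24a, Or30a, Or33a, Or33b, Or35a, Or82a, Or83a, Or85c, Or94a and Or94b. Of these, 1 (Or83a) had a region within 2 kb in both replicates and none was touched, against 2 of the other 14, both of which were touched. Among all protein-coding genes 69.7% had a region within 2 kb in both replicates. Median distances were 17.3 kb for the larval list and 12.7 kb for the others in replicate 1, and 18.9 kb and 15.1 kb in replicate 2. With so few genes the counts do not separate the lists.

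Gustatory receptor genes had a region in a larger share on 3R than on 2L. In both replicates 9 of 30 Gr genes (30.0%, interval 14.7 to 49.4) had a region within 2 kb, against 199 of 300 length-matched entries (66.3%). On 3R these were 7 of 13 genes (53.8%, interval 25.1 to 80.8), and on 2L 2 of 17 (11.8%, interval 1.46 to 36.4). The intervals of the 2 arms overlap, but they treat neighbouring genes as independent, and the difference was not tested. All protein-coding genes showed a smaller difference between the arms, with 72.6% on 3R and 65.9% on 2L. Of the 7 genes on 3R, 4 were the neighbours Gr93a, Gr93b, Gr93c and Gr93d, which share the same few regions.

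The Gr genes without a region in any list included several well-studied ones. Gr21a, a subunit of the carbon dioxide receptor, lay 27.2 kb from a region in replicate 1 and 27.0 kb in replicate 2. The 5 neighbouring genes Gr22a to Gr22e lay 31.7 to 41.3 kb from a region in replicate 1 and 31.6 to 41.2 kb in replicate 2. Gr22f, in the same stretch, was 2842 bp and 2816 bp away. Gr36a, Gr36b and Gr36c were 39.5 to 43.2 kb and 39.7 to 43.4 kb away. The others were Gr23a, Gr28a, Gr28b, Gr33a, Gr85a, Gr92a and the genes Gr98a to Gr98d. Gr33a, a broadly used bitter receptor, was just outside the limit, at 2225 bp in replicate 1 and 2403 bp in replicate 2.

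Gr28b and Gr39a produce several receptor isoforms each. Gr28b, with a role in warmth and light sensing, was 7.28 kb from a region in replicate 1 and 23.9 kb in replicate 2, and its neighbour Gr28a 9.57 kb and 23.2 kb. The replicates thus differed here, because replicate 1 listed regions in this stretch that replicate 2 did not. Gr39a lies inside the gene Mondo. In the single libraries its nearest region was 5.04 kb and 5.27 kb away. The combined list had a region on it that covered 18.9% of the gene with a score of 0.35 (2L:21296108-21297421) and lay wholly within Gr39a. Of the regions near receptor genes in the 3 lists, this was the only one to lie wholly on a receptor gene, and neither single library listed it.

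Of the Gr genes with regions, 6 were touched in both replicates. Gr94a, which lies inside the gene p53, was covered to 100% in replicate 1 and 96.7% in replicate 2 by a region with a score of 0.95 in both (3R:18877411-18879906 and 3R:18877451-18879895). Gr39b was covered to 94.2% and 100% by a region that also overlapped its neighbour dtr, with scores of 0.92 and 0.74. Gr32a, a receptor for bitter compounds and male pheromone, was covered to 32.7% and 19.1% by a region with scores of 0.78 and 0.65, which also overlapped the neighbouring gene Idua. Gr97a was touched by 14 bp and 3 bp only. Gr89a was not touched, with a region 327 bp away in replicate 1 and 1475 bp away in replicate 2.

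The Gr93 genes lie at a gap between strong, broad regions. Gr93a, needed for the response to caffeine, was covered to 100% in replicate 1 and 42.8% in replicate 2, and Gr93b to 49.7% and 31.0%. In replicate 1 both were touched by a single region of 22757 bp with a score of 1.29 (3R:17646105-17668861), and in replicate 2 by a region of 9539 bp with a score of 1.28 (3R:17659090-17668628). Replicate 2 had a break that reached into Gr93a where replicate 1 had none. Gr93c and Gr93d lay in the gap of 4.03 kb in replicate 1 that followed. They were untouched in both libraries, at 875 bp and 1108 bp for Gr93c and 514 bp and 413 bp for Gr93d. The next region, of 19584 bp with a score of 1.49 in replicate 1 and 19712 bp with 1.48 in replicate 2, overlapped 3 other protein-coding genes.

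Ionotropic receptor genes had a region within 2 kb in both replicates at 6 of 18 (33.3%, interval 13.3 to 59.0), against 147 of 180 length-matched entries (81.7%). These were Ir21a, Ir25a, Ir31a, Ir85a, Ir93a and Ir100a. On 2L 3 of 4 Ir genes had a region, which is not below the 65.9% of all protein-coding genes of that arm. On 3R 3 of 14 had one, against 72.6% of all protein-coding genes there. Both co-receptors in the set were touched. Ir25a, the most widely used co-receptor, was covered to 10.2% in replicate 1 and 11.1% in replicate 2. Regions lay at or near each end of it, one towards Fnta (scores 0.82 and 0.89) and one towards tank (1.05 and 1.10), and the middle of the gene had none. Ir93a, a co-receptor in temperature and humidity sensing, was covered to 12.3% and 11.7% by a weak region with scores of 0.47 and 0.68 that also overlapped RpS30 (3R:16676443-16678447 and 3R:16676123-16678396).

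Ir21a, which takes part in cool sensing, was covered to 54.8% in replicate 1 and 49.6% in replicate 2, by a region that extended to the tumour suppressor gene l(2)gl (2L:14603-23648 and 2L:18594-23476; scores 0.95 and 0.72). Ir31a was covered to 36.7% in replicate 1 but to 2.16% in replicate 2, where the region on 1 side ended just outside the gene. Ir85a lies inside the overlapping genes Pif1A and Pif1B. It was covered to 7.23% in replicate 1 and was 228 bp from a region in replicate 2. The highest-scoring region near any receptor gene lay within 2 kb of it, with a score of 1.62 over 22679 bp in replicate 1 and 1.52 over 22819 bp in replicate 2, and it overlapped 7 other genes.

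The Ir genes without a region in any list were Ir40a, Ir84a, Ir92a and all 8 genes from Ir94a to Ir94h. Ir84a, which responds to phenylacetic acid, lay 62.5 kb from a region in replicate 1 and 62.4 kb in replicate 2. Ir40a, part of the dry sensor, was 13.1 kb and 15.4 kb away, and the ammonia receptor Ir92a 8.66 kb and 8.71 kb. Ir94f, Ir94g and Ir94h were 9.03, 11.03 and 14.7 kb from a region in replicate 1 but 47.8, 49.8 and 53.5 kb in replicate 2, since replicate 1 listed regions on this sequence that replicate 2 did not. The 7 genes of the antennal type (Ir21a, Ir25a, Ir31a, Ir40a, Ir84a, Ir92a and Ir93a) were grouped after their values were seen. Of these, 4 had a region within 2 kb in both replicates (57.1%, interval 18.4 to 90.1). Of the 11 others, 2 had one (18.2%, interval 2.28 to 51.8). The 2 intervals overlap, but overlap is not a test of the difference, and none was made. By this measure 69.7% of all protein-coding genes had a region. The antennal type genes are also longer, with a median of 4455 bp against 1812 bp. In the combined list alone, Ir87a had a region 121 bp away with a score of 0.33, while in the single libraries the nearest lay 6.39 kb and 6.89 kb away.

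**Figure D3:**
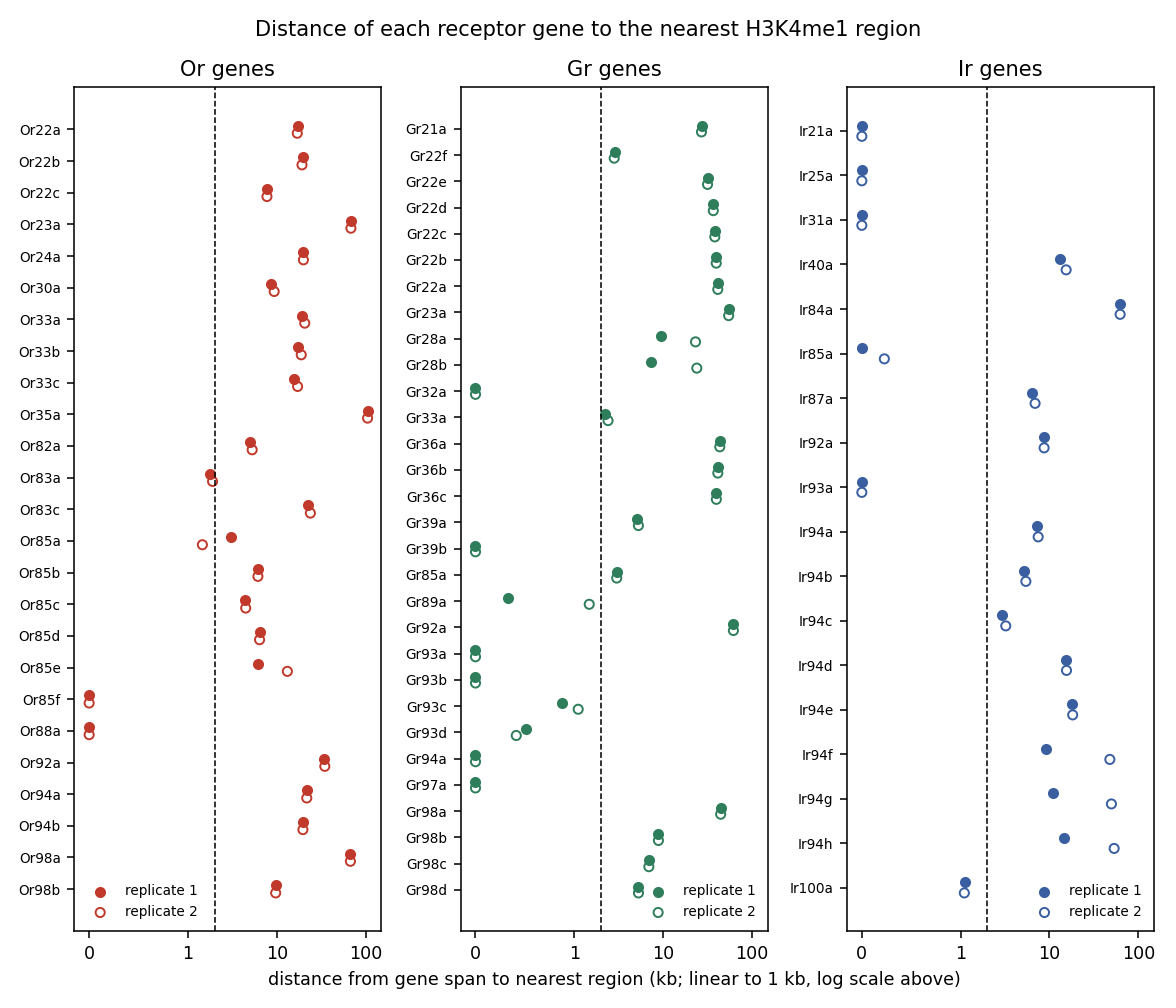
Distance in kb from each receptor gene to the nearest H3K4me1 region (x axis, linear to 1 kb and on a log scale above) in replicate 1 (filled) and replicate 2 (open), one row per gene, with the 2 kb limit as a dashed line. Distances range from 0 to 105.1 kb in replicate 1, and 58 of the 73 genes have distances within 500 bp of each other in both libraries.

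The distances were close between libraries. They differed by at most 500 bp at 58 of the 73 genes and by more than 5 kb at 6, which were Gr28a, Gr28b, Or85e, Ir94f, Ir94g and Ir94h. All 6 were farther from a region in replicate 2. Across all receptor genes the median distance was 8.51 kb in replicate 1 and 9.35 kb in replicate 2, against 0 kb for the length-matched genes in both. In the combined list it was 6.34 kb for the receptor genes.

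Many receptor genes lay in long stretches without any region. In both replicate lists 46 of 73 receptor genes (63.0%, interval 50.9 to 74.0) were in a region-free stretch of at least 40 kb, against 15.6% of the length-matched entries and 18% of all protein-coding genes. By family this held for 19 of 25 Or, 16 of 30 Gr and 11 of 18 Ir genes. A gene touched by a region cannot lie in such a stretch, so these shares partly repeat the touched shares above. In replicate 1, 46 of the 60 untouched receptor genes were in one, against 115 of the 256 untouched length-matched entries. Such stretches made up 35.2% of the length of these arms in replicate 1 and 38.5% in replicate 2. The share of receptor genes in them was higher than this share of sequence, and that of other protein-coding genes lower. The 40 kb limit was chosen after the distances were seen. In the combined list, which has more regions, 37 receptor genes (50.7%) were in such stretches, against 13.7% of the length-matched entries. There they were 12 of 25 Or, 16 of 30 Gr and 9 of 18 Ir genes, so the Or share was no longer the highest.

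The 46 genes were spread over 25 stretches of replicate 1, so that receptor genes were found in 25 of the 193 stretches of this length on both arms. The longest held Gr36a, Gr36b and Gr36c and measured 319 kb in both replicates (2L:16902497-17221091 in replicate 1). That of Or35a measured 226 kb in both and held 19 other protein-coding genes, so the receptor gene was not alone in it. Genes of different families shared a stretch in 2 cases. Or23a and Gr23a were in one of 141 kb, and Ir92a and Or92a in one of 210 kb in replicate 1 and 211 kb in replicate 2. The 6 genes from Gr22a to Gr22f shared 132 kb in both, and the 4 genes from Gr98a to Gr98d 109 kb.

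**Figure D4:**
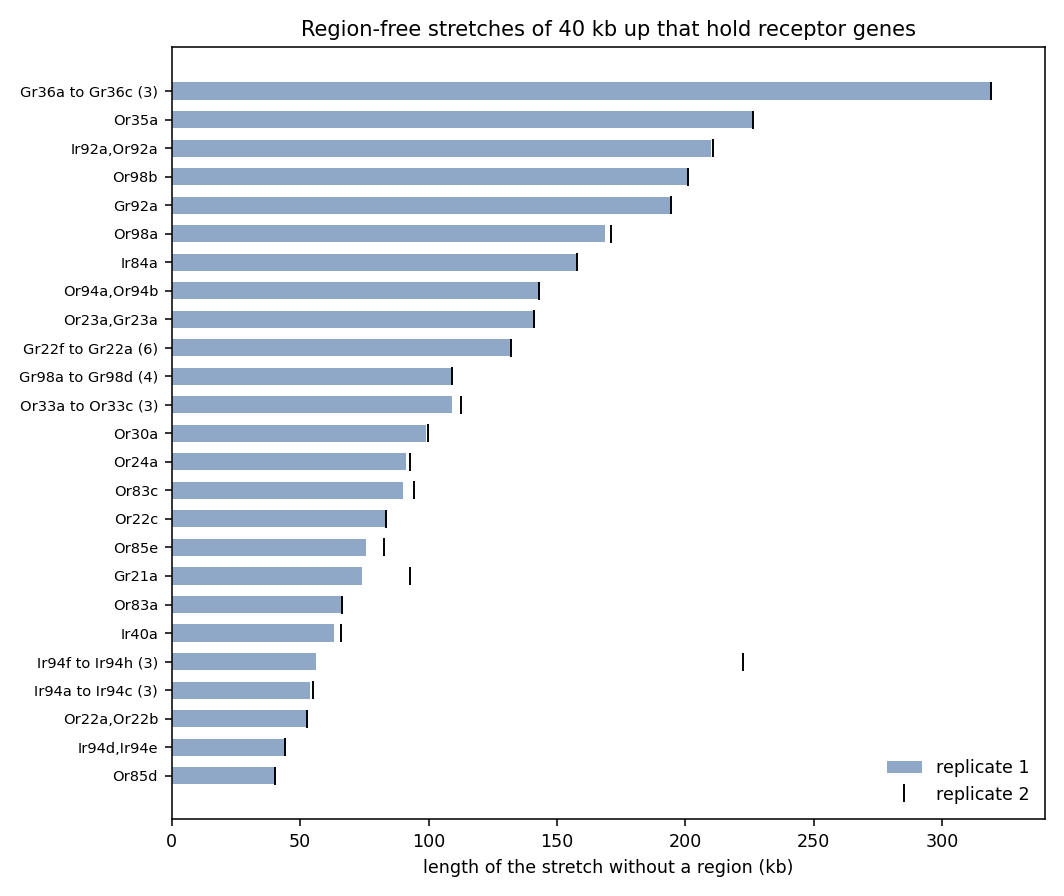
Length in kb (x axis) of the stretches without a region that hold receptor genes and measure at least 40 kb in replicate 1 (bars), with the length in replicate 2 of the stretch around the same genes (ticks); the number of receptor genes is in brackets where there are 3 or more. The stretch of Gr36a to Gr36c is the longest, with 319 kb in both, and that of Ir94f to Ir94h is 56.3 kb in replicate 1 and 222 kb in replicate 2.

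Tandem arrays were also counted apart from single genes. With members at most 5 kb apart counted as 1 locus, the 73 genes formed 52 loci, of which 40 were single genes and 12 were arrays holding 33 genes. A region lay within 2 kb of at least 1 gene in both replicates at 15 of the 40 single genes and at 1 of the 12 arrays, that of Gr93b, Gr93c and Gr93d. Over all protein-coding genes the share was 69.7%, counted by gene and not by locus. The loci are few, and the difference between arrays and single genes was not tested. Of the 17 receptor genes whose span overlaps another gene, 9 had a region within 2 kb in both replicates (52.9%, interval 27.8 to 77.0), against 9 of the 56 that overlap none (16.1%, interval 7.62 to 28.3). The intervals of the 17 and the 56 genes overlap slightly, but overlap does not measure a difference, and this one was not tested. The length-matched entries of the same receptor genes had 78.2% and 70.2%. These views were taken after the values were seen.

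The nearest other protein-coding gene lying wholly to each side of a receptor gene was examined next. Genes that overlap or enclose a receptor gene were passed over as its neighbours. These 100 neighbours had a region within 2 kb in both replicates in 55 cases (55.0%, interval 44.7 to 65.0), which is above the receptor genes (24.7%) and below the length-matched genes (72.1%). Their mean covered share was 23.4% ± 0.564, against 7.52% ± 1.36 for the receptor genes (SD, n = 2 lists). The neighbours were longer, with a median of 2950 bp against 1472 bp. Of the 55 receptor genes without a region in both replicates, 35 had at least 1 neighbour with one and 20 had none. The same count was not made for other genes, and 69.7% of all protein-coding genes had a region by this measure. Some of these neighbours were remote, or long and little covered. Ets98B lay 97584 bp from Or98a, which itself lies inside CG34353, a gene passed over here. Pde1c, beside Or33a, measured 114417 bp and was covered to 5.00% in replicate 1 and 3.41% in replicate 2.

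Replicate 1 had 23 regions within 2 kb of a receptor gene and replicate 2 had 25, or 0.745% and 0.834% of the regions of these arms. All 23 in replicate 1 and 24 of 25 in replicate 2 overlapped another protein-coding gene, which 87.2% and 87.3% of all regions of these arms did. Of these, 12 touched a receptor gene in each replicate. The receptor gene took up a median of 19.1% of the region in replicate 1 and 14.1% in replicate 2. It took up the most at Ir93a in replicate 1 (50.7%) and at Gr39b in replicate 2 (54.0%). The regions were of ordinary width, with medians of 3671 bp and 3332 bp against 3448 bp and 3234 bp for all regions of the arms. Their median scores were 0.87 and 0.79, against 0.78 and 0.81, so they were above the median of the arms in replicate 1 and below it in replicate 2.

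**Figure D5:**
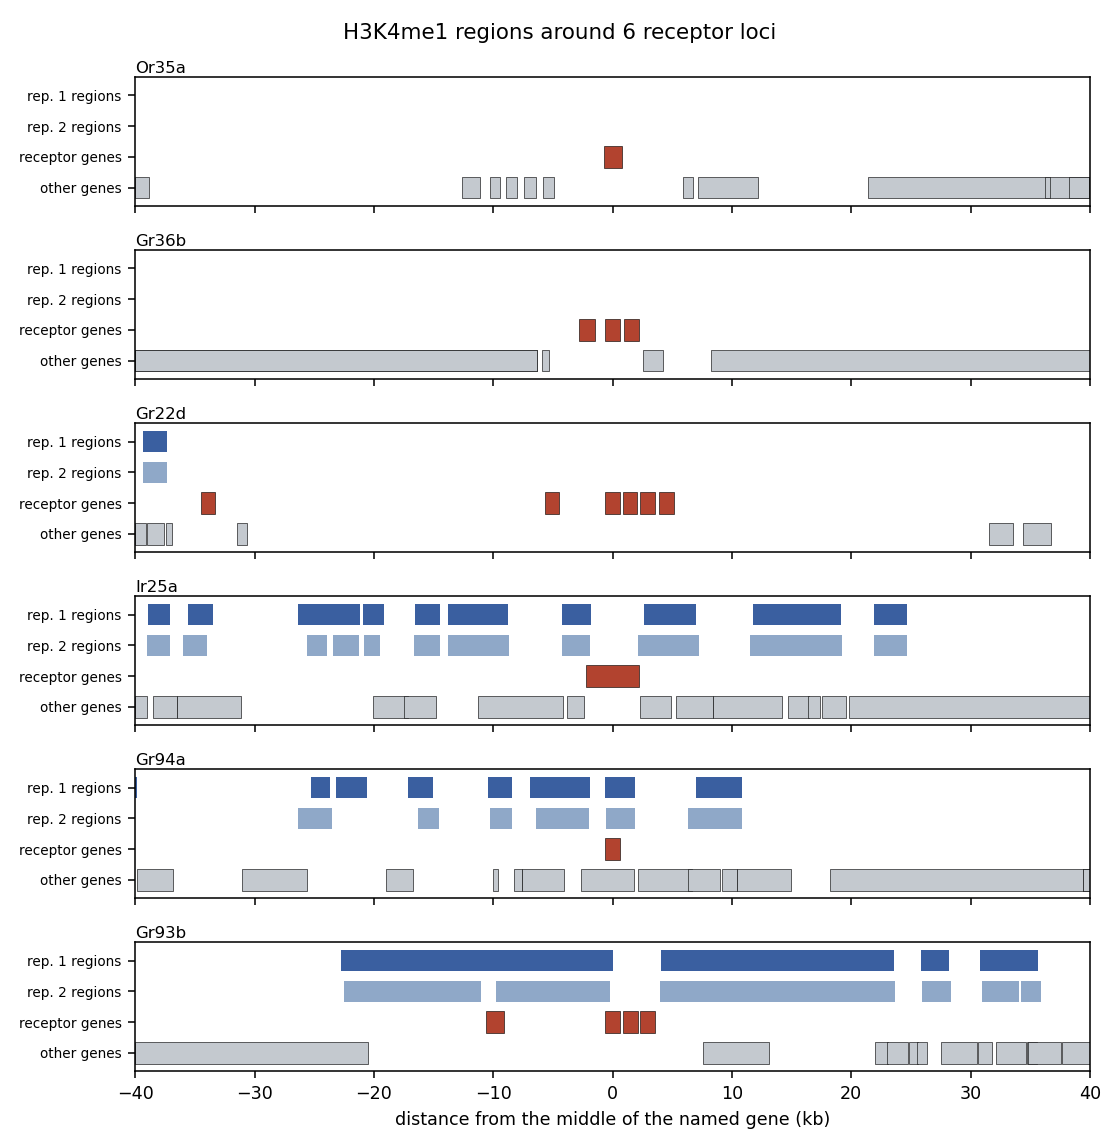
Regions of replicate 1 and replicate 2, receptor genes and other protein-coding genes drawn to scale within 40 kb of the middle of 6 receptor genes (x axis, kb). No region is drawn around Or35a and Gr36b, regions lie at the ends of Ir25a, a region lies on Gr94a, and Gr93c and Gr93d (the receptor genes right of Gr93b) lie in a gap between broad regions.

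Other genes of smell and taste were less uniform. Odorant binding proteins (Obp), secreted carriers of odours in sensory organs, had a region within 2 kb in both replicates at 7 of 14 genes (50.0%, interval 23.04 to 76.96), and the 69.7% of all protein-coding genes lies inside this interval. Obp99a was covered to 100% in both replicates, while Obp85a lay 46.0 kb and 46.1 kb from a region. The co-receptor gene Orco lay 11.3 kb from a region in replicate 1 and 11.4 kb in replicate 2, and 4.04 kb in the combined list. Snmp1, a membrane protein needed for pheromone sensing, had one at 785 bp in replicate 1 and at 2603 bp in replicate 2. Transcription factor genes that direct sensory neurons were read without matching for length. Of ato, amos, Rfx, pros, ss, dan, danr, Eip93F and svp, 8 of 9 were touched in both replicates, against 60.2% of all protein-coding genes. These genes are long, with a median of 16309 bp against 1472 bp for the receptor genes. The proneural genes ato and amos, which found olfactory sense organs, were covered to 100% in both. Eip93F was touched in replicate 1 only, with the nearest region of replicate 2 at 3072 bp.

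Read in the same way but not matched for length, 2 other families lay on either side of the receptors. Of 17 cuticle protein genes, which also occur in tandem arrays, 2 (11.8%, interval 1.46 to 36.4) had a region within 2 kb in both replicates, and their mean covered share was 0.930% ± 1.32, with all of it from a single replicate list. Of 40 ribosomal protein genes, 39 (97.5%, interval 86.8 to 99.9) had one, and their mean covered share was 92.6% ± 0.161 (SD, n = 2 lists). Receptor genes stood between them, with 24.7% and 7.52%, and nearer to the cuticle protein genes.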

How the data were processed

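H3K4me1 ChIP-seq of whole embryos gave 2 replicate libraries. The authors deposited lists of regions of significant enrichment on release 5, per the file headers, with a log2 score per region. Bowtie 0.12.7 was used, per the submitters' processing notes; how regions were called, at which threshold and with what use of the input, and how deep the libraries were, is not given in the sources used. The scale of the score is not stated. In base 2, 7601 of 7601, 7401 of 7401 and 8218 of 8219 scores of replicate 1, replicate 2 and the combined list were the logarithm of 1 constant times a ratio of whole numbers (denominators up to 20000, relative tolerance 2e-13). At most 5 per list passed in base e or 10, so the scores were read as log2 values. The list of each replicate was taken from the repository's record, since both lists carry the same experiment number, whereas the labels number the libraries differently. The names of the replicates could therefore be exchanged, which would not alter values over both. The 1 record called depleted was left out.

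Gene spans came from the RefSeq gene table of release 6. They were placed on release 5 without change on 2L and by subtracting 4174278 on 3R, as the rule for the gene set states. As a check of placement, 45.1% of protein-coding gene ends on 2L and 50.1% on 3R were covered by combined regions, and shifts of 2 to 200 kb either way gave less, 31.6 to 43.6% on 2L and 33.4 to 47.9% on 3R. Genes without a release 5 position on these arms, and genes of 2L beyond 22.3 Mb, were left out (49 genes, no receptor gene). The table gives no strand, so a planned count of marked gene starts was not made.

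A gene had a region if its span with 2 kb on each side overlapped one by at least 1 bp. For each receptor gene the 10 other protein-coding genes of the same arm nearest in log length were compared, as 730 entries of 567 distinct genes. Shares have exact Clopper-Pearson intervals (95%), and no test was made. Distances and covered bases were tested on 200 genes with simulated regions, all recovered (100%). Genes were named by rule: the best covered receptor genes, well-studied ones, those without a region in any list, and those marked in 1 replicate only. The receptor genes and lists were chosen with earlier results of these data known. Snmp2, on the list of smell and taste genes, was not analysed here. Python 3.11.15, pandas 2.3.3 and scipy 1.17.1 were used.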

Additional observations from a re-analysis of the deposited data

How the results depend on the processing

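Alternatives gave 49 values, of which 23 stayed within the spread, 26 moved beyond it and 0 changed direction. Only the differences between receptor and length-matched genes have a direction, so the counts and shares could not have changed it. The spread was the SD between replicates for covered shares and for differences, the exact interval for the share of length-matched genes, and a factor of 1.5 for counts. That interval was taken over 730 entries of 567 distinct genes, so it treats repeated genes as separate and is only a rough limit. Receptor genes stayed below length-matched genes under all 10 alternatives to that difference (-47.4 percentage points). It was -40 in the 50% of each list with the highest scores, and -51.4 to -46.2 without either replicate. For all 73 receptor genes against length-matched genes that overlap no other gene it was -40.7. For the 56 receptor genes that overlap none it was -54.1, against length-matched genes with or without overlaps. Receptor and length-matched genes that both overlap none were not compared. The count of receptor genes with a region, 18, was 10 in the top 50% by score, 3 when at least 50% of the span had to be covered, 9 among the 56 genes that overlap no other gene, and 18 to 19 without either replicate. The share of length-matched genes, 72.1%, was 60.7% without a flank, 77.9% with 5 kb, 76.6% in the combined list, 53.7% in the top 50%, 49.9% when at least 50% of the span had to be covered, 65.3% for genes that overlap no other gene, and 72.2 to 76.0% without either replicate. The mean covered share of receptor genes, 7.52%, was 9.19% in the combined list, 5.46% in the top 50%, 11.7% with 2 kb on each side, and 6.56 to 8.48% without either replicate. That of length-matched genes, 50.7%, was 54.1%, 39.2% and 48.9% under the same 3 alternatives, 51.8% with 20 genes per receptor gene, 44.4% for genes that overlap no other gene, and 50.0 to 51.4% without either replicate. Alternatives for region-free stretches were chosen after seeing the data. The difference in the share of genes inside such stretches, 47.4 points, was 36.99 in the combined list, 50.4 for stretches of 20 kb up, 31.9 for 80 kb up and 47.0 to 47.3 without either replicate. The cause of these moves was not tested, beyond the fewer or more regions that a stricter choice or the combined list brings. No paired analysis was possible because the study has no second group with regions to pair. Unknown read depth limits what the absence of a region means.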
